A study of Mus musculus with 4 samples.

Results

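The 10 genes described are *Yap1* and genes that are classical targets of YAP/TEAD transcription, members of the CCN family of secreted proteins, or both. They were taken by name from the 24391 gene symbols of the count table: *Cyr61*, *Ctgf*, *Nov*, *Wisp1* and *Wisp2* (also written *Ccn1* to *Ccn5*), *Ankrd1*, *Amotl2*, *Lats2*, *Ajuba* and *Yap1*. All 10 were counted and all 10 passed the filter on low counts. They were compared between WT and *Phf2* KO mouse embryonic fibroblasts (MEFs), primary cells grown from embryos at E13.5 and held in quiescence. By the sample labels, the 2 WT and the 2 *Phf2* KO libraries are all *Phf2* flox/flox, ERCre/+. Tamoxifen is named as a treatment for the *Phf2* KO libraries alone. Cre was fused to a modified oestrogen receptor and expressed from Rosa26, so that 4-hydroxytamoxifen (4-OHT, 0.5 µM for 7 days in the protocol) switches it on in any cell. The deletion of *Phf2*, the active Cre and the drug are found in the same 2 libraries, so their effects cannot be told apart. Nothing in the labels says whether replicates came from separate embryos or cultures. The counts of *Xist* and *Ddx3y*, given below, show that replicates 1 and 2 differed in sex and so came from different embryos. Whether WT and *Phf2* KO libraries of the same number share an embryo is not stated. The p-values measure the spread between these libraries only.

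YAP and its paralog TAZ (encoded by *Wwtr1*) are coactivators without a DNA-binding domain of their own, and they act through the TEAD family of DNA-binding proteins. In the Hippo pathway the kinases MST1 and MST2 activate LATS1 and LATS2, which phosphorylate YAP and TAZ and keep them out of the nucleus. Dense, rounded or serum-starved cells have low YAP activity and spread, tense fibroblasts have high activity, and CCN1 and CCN2 are among the transcripts most often used to read it out. The data here are RNA levels and hold no measure of YAP localization or phosphorylation.

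TEAD proteins recognise a short element, GGAATG on one strand and CATTCC on the other. RefSeq promoter entries (GRCm38.p6, a later build than the NCBIM37 to which the reads were mapped) were found for 6 of the 10 members, *Cyr61*, *Ankrd1*, *Amotl2*, *Lats2*, *Ajuba* and *Yap1*. In the 250 bases before the annotated start, 5 of these 6 held the element on either strand, and neither window of *Lats2* did. Of 32851 promoter windows of the same length, 12.6% held it. None of the members' windows held the AP-1 element TGANTCA (6.75% of all windows) or the SRF element known as the CArG box (1.47%), on either strand, and the matches did not overlap each other. A match is a description of these letters and not a mapped TEAD site. The 5 windows with a match are given 5′ to 3′ on the strand of the gene, with the TEAD element in capitals. They were picked for the match, so that they share the element follows from this choice. They lie at chr3:145649986-145650235 for *Cyr61* (reverse strand), chr19:36119845-36120094 for *Ankrd1* (reverse), chr9:102717554-102717803 for *Amotl2* (forward), chr14:54577662-54577911 for *Ajuba* (reverse) and chr9:8004597-8004846 for *Yap1* (reverse).
Cyr61: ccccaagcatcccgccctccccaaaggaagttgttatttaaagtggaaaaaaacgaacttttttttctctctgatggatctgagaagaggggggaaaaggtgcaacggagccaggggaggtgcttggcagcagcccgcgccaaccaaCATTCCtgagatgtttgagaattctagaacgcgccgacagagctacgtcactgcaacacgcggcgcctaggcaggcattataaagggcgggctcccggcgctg
Ankrd1: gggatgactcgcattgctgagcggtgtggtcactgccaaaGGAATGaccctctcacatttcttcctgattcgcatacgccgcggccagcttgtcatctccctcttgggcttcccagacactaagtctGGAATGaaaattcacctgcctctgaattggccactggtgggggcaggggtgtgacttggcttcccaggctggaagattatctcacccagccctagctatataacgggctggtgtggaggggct
Amotl2: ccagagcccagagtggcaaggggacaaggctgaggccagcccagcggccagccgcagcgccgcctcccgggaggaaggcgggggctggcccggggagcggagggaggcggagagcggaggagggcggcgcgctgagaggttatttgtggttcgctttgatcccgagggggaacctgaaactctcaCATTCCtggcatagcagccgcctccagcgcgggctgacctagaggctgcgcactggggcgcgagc
Ajuba: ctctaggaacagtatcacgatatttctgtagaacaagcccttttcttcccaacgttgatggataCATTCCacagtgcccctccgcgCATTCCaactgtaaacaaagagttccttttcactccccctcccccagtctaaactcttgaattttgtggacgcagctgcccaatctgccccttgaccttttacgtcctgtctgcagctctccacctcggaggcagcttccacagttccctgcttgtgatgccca
Yap1: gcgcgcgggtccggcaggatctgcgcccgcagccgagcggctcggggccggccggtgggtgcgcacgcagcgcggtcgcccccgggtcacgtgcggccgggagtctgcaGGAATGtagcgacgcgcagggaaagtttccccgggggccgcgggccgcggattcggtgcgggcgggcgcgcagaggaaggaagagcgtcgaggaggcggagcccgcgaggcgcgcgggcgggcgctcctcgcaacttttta

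Counted with the base before the start as -1, the element lay from -103 to -98 in *Cyr61* and from -65 to -60 in *Amotl2*, both as CATTCC. *Yap1* held GGAATG from -141 to -136. A pair of copies was found in *Ankrd1*, from -210 to -205 and from -123 to -118, and in *Ajuba*, from -186 to -181 and from -164 to -159. The element was thus present in the window of *Yap1* and in those of 4 targets, *Cyr61*, *Ankrd1*, *Amotl2* and *Ajuba*.

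The libraries held 21094743 to 26094268 counts, and the detection limit, set at 3 counts, lay at 0.116 to 0.145 CPM (counts scaled to library size, with TMM factors), which covers counting error only. *Phf2* itself, over the whole gene, gave 3244 and 3680 counts in the WT libraries against 1454 and 2158 in those labelled *Phf2* KO. Its mean level was 138 ± 5.11 CPM (SD, n = 2) and 80.0 ± 13.9 CPM (SD, n = 2), respectively. The 10 fibroblast markers summed to between 69561 and 82088 CPM in each library, while the 6 epithelial markers summed to between 3.44 and 4.41 CPM and the 6 neural markers to between 84.3 and 106 CPM. The 6 muscle markers summed to 54.2 and 25.0 CPM in WT replicates 1 and 2 and to 32.7 and 14.6 CPM in *Phf2* KO, nearly all of it from *Des* (14.1 to 53.1 CPM), and the defining *Myod1* and *Myog* had at most 2 counts. The 6 endothelial markers summed to 48.8 (WT) and 43.1 CPM (*Phf2* KO) in replicates 1 and to 17.7 CPM in both replicates 2. Most of it came from *Vwf* (5.86 to 26.8 CPM) and *Kdr* (5.62 to 18.3 CPM), both lower in replicate 2 than in replicate 1 of either group. *Pecam1* had 2 to 5 counts. Replicates 1 and 2 stood apart in both groups. *Xist* was counted 10042 (WT) and 8336 times (*Phf2* KO) in replicates 1 but 3 and 12 times in replicates 2. The Y-linked *Ddx3y* was counted 6 (WT) and 10 times (*Phf2* KO) in replicates 1 but 1271 and 1295 times in replicates 2. Replicates 1 thus had the pattern of female cells and replicates 2 that of male cells. All 12 macrophage markers were lower in replicate 2 than in replicate 1 of either group. Summed, they reached 3795 (WT) and 4377 CPM (*Phf2* KO) in replicates 1 but 843 and 1326 CPM in replicates 2. The part of sex or of macrophage, endothelial or muscle markers in the values given here was not tested.

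The members differed widely in level. Levels were compared between genes as CPM per kilobase of annotated exon. *Nov*, which encodes CCN3, a matricellular protein that in many cells is linked to growth arrest, was the most abundant, with 854 ± 136 CPM per kb (SD, n = 2) in WT MEFs and 982 ± 8.35 (SD, n = 2) after *Phf2* deletion. *Cyr61* followed at 296 ± 127 (SD, n = 2) and 336 ± 53.8 (SD, n = 2), and its lowest library (206) stayed above the highest of the next gene (184). *Wisp2*, whose protein CCN5 lacks the C-terminal domain of the other CCN proteins, stood at 151 ± 47.6 CPM per kb (SD, n = 2) in WT, and *Ctgf* at 120 ± 44.9 (SD, n = 2). The ranges of *Wisp2* and *Ctgf*, and of *Ctgf* and *Amotl2* (78.2 ± 14.6 (SD, n = 2) in WT), overlapped. *Wisp1*, the gene of CCN4, was next at 42.7 ± 1.97 (SD, n = 2) CPM per kb. *Yap1*, *Ankrd1*, *Ajuba* and *Lats2* formed the lower end, between 18.2 and 25.4 CPM per kb in WT, each with a range that overlapped that of its neighbour. The sixth CCN gene, *Wisp3*, had 0 to 3 counts in each library, at or under the limit of detection.

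**Figure D1:**
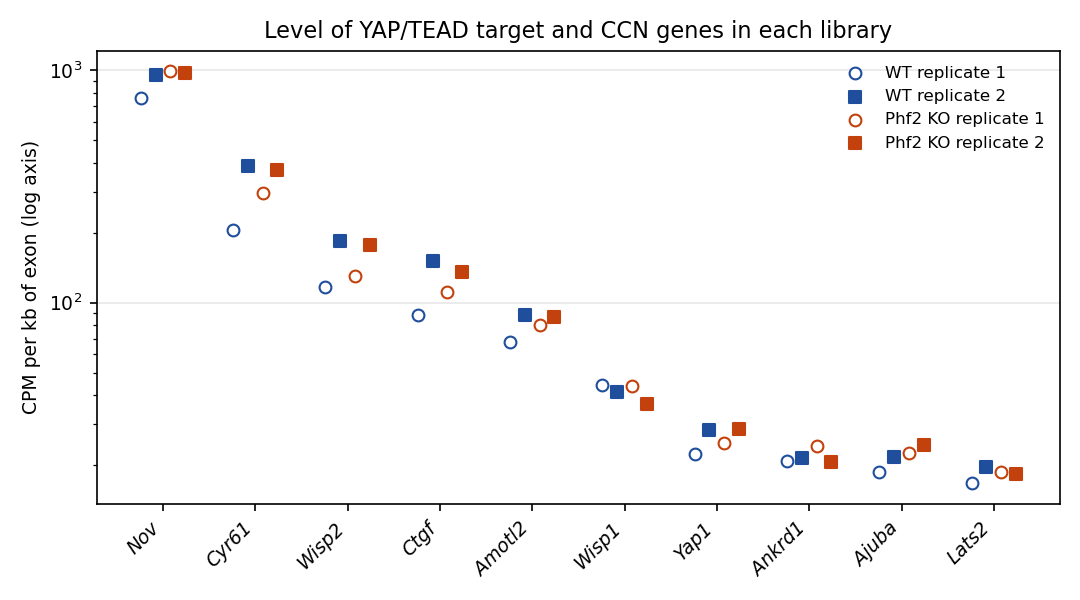
Level of the 10 genes in each of the 4 libraries, in CPM per kilobase of exon on a log axis, with the genes ordered by their WT mean. Blue marks WT and orange *Phf2* KO, open circles replicate 1 and filled squares replicate 2. *Nov* sits highest, near 854 CPM per kb in WT, and for most genes the open blue circle (WT replicate 1) is the lowest of the 4 points.

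None of the 10 genes was called between *Phf2* KO and WT MEFs in the comparison of the 2 groups. By the quasi-likelihood test of edgeR at an adjusted p-value under 0.1, 0 members were higher and 0 lower, against 0% and 0.00732% of the 13668 genes tested. At an unadjusted p-value under 0.05 the members also gave 0 and 0, against 1.54% and 2.67% of all genes. DESeq2 called 0 members, against 0.0625% of its genes as higher and 0.338% as lower, and limma-voom called 0. When the fit was blocked on replicate number, 1 of 10 members (*Ajuba*) was called higher and 0 lower, against 5.77% and 5.20% of all genes. The estimates ran from -0.09 to 0.21 on the log2 scale, with a median of 0.08 over the 10 members and 0.01 over all genes. Estimates were above 0 for 9 of 10 members and for 7003 of 13668 genes. The adjusted p-value was 0.999 for every member by the quasi-likelihood test of edgeR. That test did not call the deleted gene *Phf2* either (log2 fold change -0.79, unadjusted p = 0.0033, adjusted p = 0.999). *Phf2* was called lower by DESeq2 (adjusted p = 0.0032) and by the blocked fit of edgeR (adjusted p = 7.67e-19). The absence of calls in the comparison without the block therefore does not show that the members were unchanged.

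Among the CCN genes, *Cyr61*, an immediate early gene whose matrix-bound product binds integrins, was at 418 and 784 CPM in WT and 603 and 758 CPM in *Phf2* KO MEFs. Both *Phf2* KO libraries lay between the WT libraries. The log2 fold change was 0.18 (standard error 0.33, 95% interval -0.69 to 1.05). *Ctgf*, which encodes CCN2, a promoter of matrix production in fibroblasts, was at 219 and 378 CPM in WT and 277 and 338 CPM in *Phf2* KO, again inside the WT range, and its log2 fold change was 0.04 (standard error 0.29, 95% interval -0.72 to 0.80). *Wisp2* had 225 and 355 CPM in WT and 251 and 340 CPM in *Phf2* KO, a log2 fold change of 0.03 (standard error 0.27, 95% interval -0.69 to 0.75). For these 3 genes the interval spans from -0.69 or lower to 0.75 or higher. Changes up to that size in either direction lie within the error of the fit with genotype alone. That fit counts differences shared by libraries of the same replicate number as error. In the fit blocked on replicate number the estimates were 0.24 (*Cyr61*), 0.08 (*Ctgf*) and 0.05 (*Wisp2*). In mm9, *Ctgf* (chromosome 10, 24315248 to 24318489, forward strand) overlaps the annotated gene *Gm15270* on the other strand, and *Cyr61* (chromosome 3, 145309935 to 145312949, reverse strand) overlaps none.

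*Nov* was counted at 2173 and 2726 CPM in WT and 2835 and 2801 CPM in *Phf2* KO MEFs. Both *Phf2* KO libraries were above both WT libraries, though the upper WT library was within 0.04 log2 units of its *Phf2* KO counterpart of the same number. The log2 fold change was 0.20 (standard error 0.15, 95% interval -0.19 to 0.59). *Wisp1*, known as a Wnt-inducible gene of connective tissue, was the only member with an estimate below 0. It had 243 and 228 CPM in WT and 242 and 203 CPM in *Phf2* KO, and a log2 fold change of -0.09 (standard error 0.12, 95% interval -0.40 to 0.23). In mm9 both lie on the forward strand of chromosome 15, *Nov* from 54577257 to 54585594 and *Wisp1* from 66722882 to 66754763, and *Wisp2* lies on the forward strand of chromosome 2, from 163646597 to 163658882. The 5 CCN genes thus did not move in a common direction beyond their spread.

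*Ankrd1*, which encodes an ankyrin repeat protein of the nucleus and the sarcomere and is a strong YAP target in many cells, was low and even across libraries. It had 36.8 and 37.9 CPM in WT and 42.8 and 36.5 CPM in *Phf2* KO cells, with a log2 fold change of 0.09 (standard error 0.12, 95% interval -0.22 to 0.40). *Amotl2*, a target whose junctional product binds YAP and restrains it, had 427 and 557 CPM in WT and 505 and 544 CPM in *Phf2* KO, with a log2 fold change of 0.09 (standard error 0.16, 95% interval -0.32 to 0.51). *Lats2*, the target that encodes a YAP kinase, had 122 and 143 CPM in WT and 137 and 133 CPM in *Phf2* KO. Its log2 fold change was 0.03 (standard error 0.11, 95% interval -0.26 to 0.31), and in the annotation its 3′ end overlaps *Xpo4* on the same strand, so reads there are uncertain. The mm9 positions are 36186455 to 36194334 on chromosome 19 for *Ankrd1* (reverse strand), 102619002 to 102635748 on chromosome 9 for *Amotl2* (forward) and 58260914 to 58377225 on chromosome 14 for *Lats2* (reverse). The estimates of these 3 genes were all under 0.1 log2 units.

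*Ajuba*, which encodes a LIM protein that binds LATS kinases and limits their activity, had 61.2 and 70.7 CPM in WT and 73.6 and 79.2 CPM in *Phf2* KO MEFs. Both *Phf2* KO libraries were above both WT libraries, and the log2 fold change was 0.21 (standard error 0.11, 95% interval -0.07 to 0.50, with an unadjusted p = 0.109 and adjusted p = 0.999 in edgeR). *Yap1* itself had 207 and 262 CPM in WT and 231 and 266 CPM in *Phf2* KO, a log2 fold change of 0.08 (standard error 0.15, 95% interval -0.32 to 0.48). The genes lie in mm9 on the reverse strand, *Ajuba* on chromosome 14 from 55186309 to 55196253 and *Yap1* on chromosome 9 from 7931999 to 8004596, where an antisense gene overlaps it. *Ajuba* and *Nov* were the 2 members whose groups did not overlap, both with *Phf2* KO above WT, and 0 members had *Phf2* KO below WT. Over all genes, 15.5% lay in the first class and 18.0% in the other, so 2 of 10 is near the background.

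**Figure D2:**
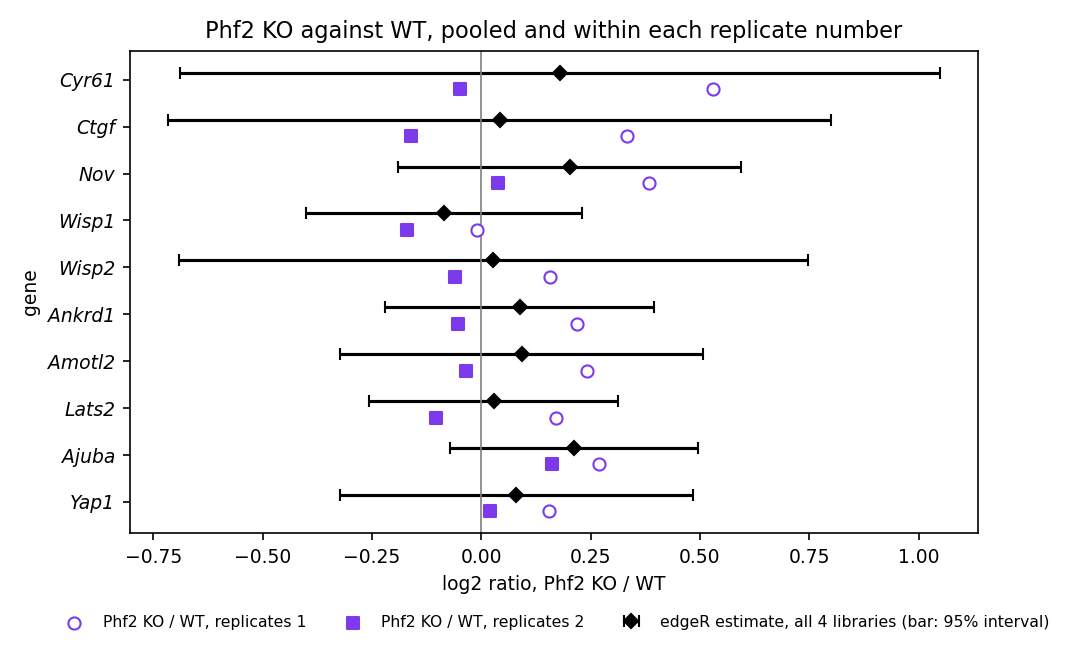
Log2 ratio of *Phf2* KO to WT for each gene. Black diamonds are the edgeR estimate from all 4 libraries with its 95% interval, and purple marks are the ratio within replicates 1 (open circles) and within replicates 2 (filled squares). Every interval spans 0, and in all 10 genes the open circle lies to the right of the square.

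The ratio of *Phf2* KO to WT was also taken within each replicate number, because the replicates differed from each other. Within replicates 1 it was above 0 for 9 of 10 members with a median of 0.23, and within replicates 2 for 3 of 10 with a median of -0.05. All 10 members had the larger ratio in replicates 1, which was so for 52.8% of all genes. *Cyr61* had the widest gap, with 0.53 in replicates 1 and -0.05 in replicates 2. *Ctgf* gave 0.33 and -0.16, *Nov* 0.38 and 0.04, and *Amotl2* 0.24 and -0.03. *Ajuba*, *Nov* and *Yap1* were above 0 in both, *Wisp1* was below 0 in both (-0.01 and -0.17), and the other 6 changed sign. Whether the genotype difference itself differed between the replicate numbers was not tested, since each has 1 library per group.

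The spread between replicates exceeded the difference between genotypes for most members. The former compares single libraries and the latter pools all 4, and the share of all genes for which this held was not counted. In WT MEFs, *Cyr61* was higher in replicate 2 than in replicate 1 by 0.91 log2 units, *Ctgf* by 0.78, *Wisp2* by 0.65, *Amotl2* by 0.38, *Yap1* by 0.34 and *Nov* by 0.33. The difference in *Cyr61* was larger than that of 91.6% of all genes tested, and that in *Ctgf* than that of 89.4%. For the other members this share ran from 12.3% (*Ankrd1*) to 86.7% (*Wisp2*). In *Phf2* KO MEFs the same differences were 0.33 for *Cyr61*, 0.29 for *Ctgf*, 0.44 for *Wisp2*, 0.11 for *Amotl2*, 0.20 for *Yap1* and -0.02 for *Nov*. Over the 10 members the median was 0.33 in WT (9 higher in replicate 2) and 0.11 in *Phf2* KO (6 higher), beside 0.02 and 0.00126 over all genes. WT replicate 1 was the lowest of the 4 libraries for 8 of 10 members and for 32.4% of all genes. *Ankrd1* and *Wisp1* were the exceptions, with their lowest value in *Phf2* KO replicate 2. Without WT replicate 1, the log2 fold change of *Cyr61* was -0.19 and that of *Ctgf* -0.29. Without WT replicate 2 they were 0.69 and 0.47. Leaving out *Phf2* KO replicate 1 gave 0.33 and 0.18, and leaving out *Phf2* KO replicate 2 gave 0.0084 and -0.11, so that the sign of *Ctgf* depended on a library in either group. The fibroblast markers had a median difference between replicates of -0.01 in WT and -0.03 in *Phf2* KO. Single markers moved either way, with 3 of 10 lower and 2 higher in replicate 2 of both groups. In such bulk libraries, fewer cells of a kind cannot be told apart from less RNA per cell.

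**Figure D3:**
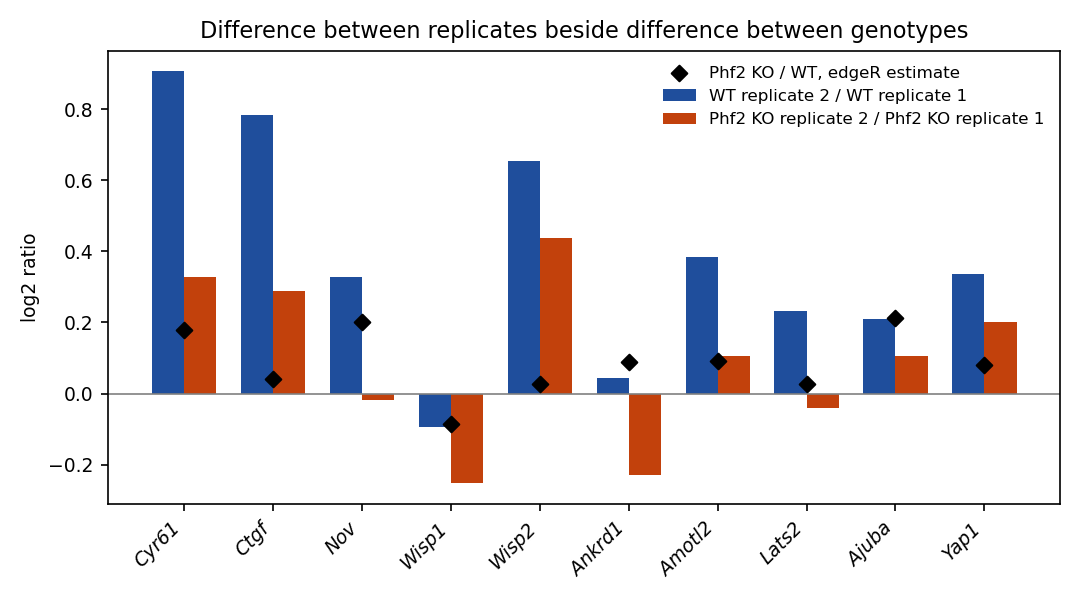
Log2 ratio of replicate 2 to replicate 1 in WT (blue bars) and in *Phf2* KO MEFs (orange bars) for each gene, with the edgeR estimate of *Phf2* KO against WT as black diamonds. For *Cyr61*, *Ctgf* and *Wisp2* the blue bars reach 0.91, 0.78 and 0.65, far above the diamonds at 0.18, 0.04 and 0.03.

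The members that were most alike over the 4 libraries, after each gene's log2 CPM was centred on its own mean, were *Amotl2* and *Yap1*, with a root mean square difference of 0.0386 log2 units. *Ctgf* differed from *Wisp2* by 0.0720 and from *Cyr61* by 0.0890, while *Cyr61* and *Wisp1* differed by 0.441, so the CCN genes did not share one pattern. Among 12519 other genes, those nearest to *Cyr61* were *Fam20a* (0.0387), *Trim7* (0.0487) and *Fhl1* (0.0513). Those nearest to *Ctgf* were *P2rx5* (0.0323), *Nbl1* (0.0325) and *Eln*, the elastin gene (0.0325). *Eln* was at 2127 and 3462 CPM in WT and 2675 and 3240 CPM in *Phf2* KO, with WT replicate 1 the lowest as for *Ctgf*. Only 38 genes lay within 0.1 of *Cyr61* and 79 within 0.1 of *Ctgf*. For *Ankrd1*, which varied little, 2439 genes did, so its nearest genes *Ltv1*, *Ndufaf4* and *Cox10* do not single out a pattern. How many genes lay as near to *Amotl2* or *Yap1* was not counted, so their closeness does not single out a pattern either. These distances rest on 4 libraries.

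The 17 other genes of a common YAP/TEAD target signature were read in the same fit. By the quasi-likelihood test of edgeR, 0 were called higher and 0 lower in the *Phf2* KO group, against 0% and 0.00732% of all genes. At an unadjusted p-value under 0.05, 1 was higher and 0 lower, against 1.54% and 2.67%. Blocked on replicate number, the fit called 5 higher and 1 lower, against 5.77% and 5.20%. The median log2 fold change was 0.05, with 9 above and 8 below 0. The gene past the unadjusted threshold was *Nuak2*, a kinase of the AMPK family, which had 9.17 and 11.9 CPM in WT and 17.5 and 15.3 CPM in *Phf2* KO, with an estimate of 0.64 log2 units (standard error 0.18) and a p-value of 0.0209 before and 0.999 after adjustment by edgeR. Both *Phf2* KO libraries were above both WT libraries. *Gadd45a*, a stress and DNA damage response gene, had 87.3 and 72.0 CPM in WT and 109 and 94.6 CPM in *Phf2* KO, with a log2 fold change of 0.36. *F3*, the gene of tissue factor, had 256 and 392 CPM in WT and 359 and 443 CPM in *Phf2* KO and a log2 fold change of 0.31, and its groups overlapped. At the lower end stood *Asap1*, a GTPase-activating protein of focal adhesions (-0.24), *Axl*, a receptor tyrosine kinase (-0.14), and *Foxf2*, a forkhead factor with 2 to 15 counts per library (-0.12, 95% interval -2.87 to 2.62). WT replicate 1 was the lowest library for 10 of these 17 genes, against 32.4% of all genes.

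The list of Hippo pathway genes held 28 genes, with the remaining CCN gene *Wisp3* added to it. Of these, 27 were tested, all but *Wisp3*. None was called by the quasi-likelihood test of edgeR, against 0% of all genes called higher and 0.00732% lower. At an unadjusted p-value under 0.05, 3 were higher and 0 lower, against 1.54% and 2.67% of all genes. The fit blocked on replicate number called 5 of them higher and 1 lower, against 5.77% and 5.20%. The median log2 fold change was 0.03, with 16 above and 11 below 0. Among the DNA-binding partners, *Tead1*, with 6203 to 8343 counts per library, had a log2 fold change of -0.03 (standard error 0.09). *Tead2* had 67.3 and 82.5 CPM in WT and 90.5 and 104 CPM in *Phf2* KO MEFs, so that the groups did not overlap. The estimate was 0.38 log2 units with a standard error of 0.14, and the p-value was 0.0446 before and 0.999 after adjustment by edgeR. *Tead3* gave 0.10 and *Tead4*, with 80 to 121 counts per library, 0.05. *Wwtr1*, the gene of TAZ, gave 0.0016 (standard error 0.10, 95% interval -0.27 to 0.27).

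The kinase and adaptor genes had estimates from -0.24 for *Mob1a*, a LATS cofactor, to 0.27 for *Map4k4*, a kinase that can activate LATS in parallel to MST kinases. *Map4k4* had 435 and 470 CPM in WT and 543 and 551 CPM in *Phf2* KO (unadjusted p = 0.0354, quasi-likelihood test of edgeR). *Lats1*, the paralog of *Lats2*, had 54.3 and 49.5 CPM in WT and 46.6 and 45.8 CPM in *Phf2* KO, a log2 fold change of -0.17 (standard error 0.09). Among the junction and upstream genes, *Amot*, a relative of *Amotl2*, had 58.1 and 62.2 CPM in WT and 74.4 in each *Phf2* KO library. The estimate was 0.31 log2 units with a standard error of 0.08 (unadjusted p = 0.0156 and adjusted p = 0.999 in edgeR). *Wwc1*, which encodes the scaffold KIBRA, had 14.6 and 21.9 CPM in WT and 23.4 and 26.5 CPM in *Phf2* KO, and the largest estimate of the pathway list, 0.45 (standard error 0.22). *Fat4*, an atypical cadherin, had 378 and 452 CPM in WT and 317 and 365 CPM in *Phf2* KO, and the lowest estimate, -0.28 (standard error 0.14). *Frmd6*, the gene of Willin, gave -0.21.

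**Figure D4:**
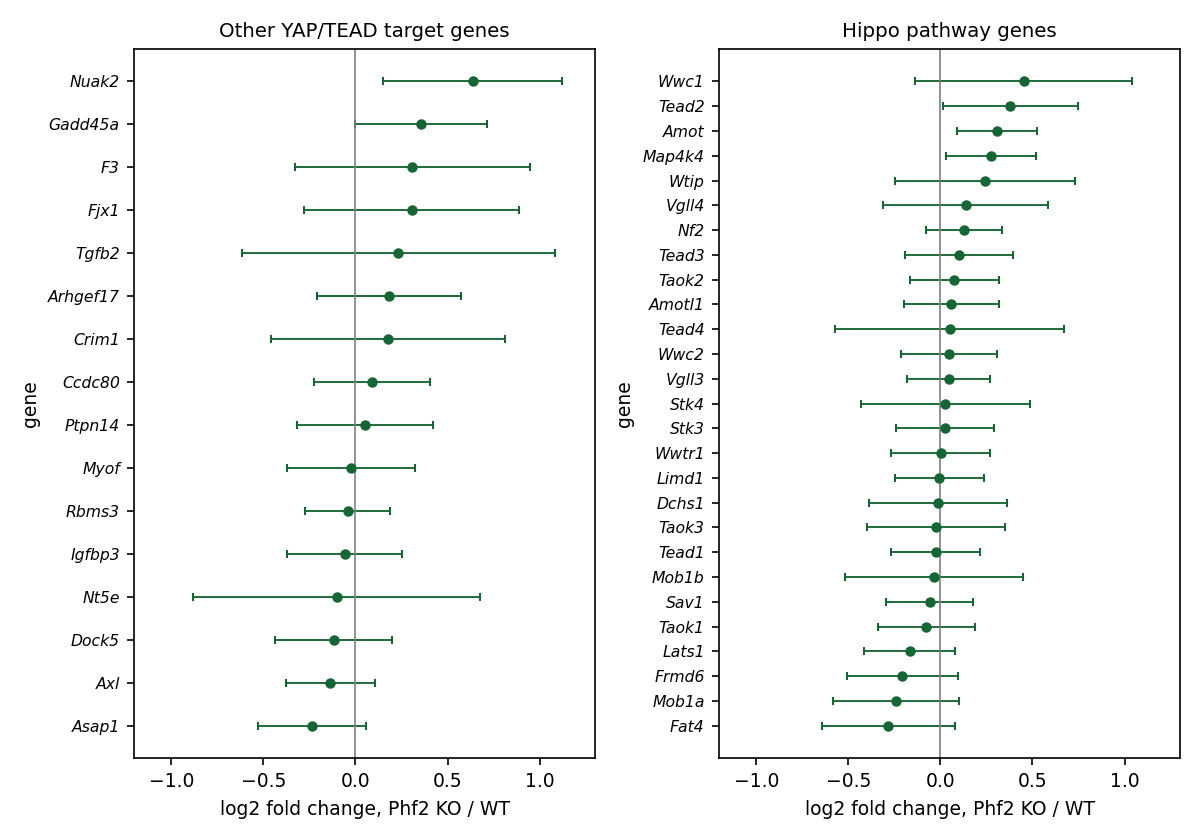
Log2 fold change of *Phf2* KO against WT with its 95% interval for the other YAP/TEAD target genes (left) and the Hippo pathway genes (right), each sorted by estimate. *Foxf2* (-0.12) is left out for its wide interval and *Wisp3* was not tested. *Nuak2* (0.64), *Amot* (0.31), *Map4k4* (0.27) and *Tead2* (0.38) have intervals above 0 before adjustment.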

How the data were processed

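RNA-seq of 2 WT and 2 *Phf2* KO libraries was analysed. The authors trimmed single reads with Trim Galore, removed rRNA reads with bowtie2, used STAR (reverse-stranded mode) to map what remained to mm9 and assigned the reads with featureCounts, and the deposited values are raw counts per gene symbol. Tool versions, the annotation release and the handling of multi-mapping reads are not given in the sources used here. A deposited table of the authors' own DESeq2 comparison was not used.

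The counts were analysed with edgeR 4.0.16 in R 4.3.3. filterByExpr kept 13668 genes, which were scaled by TMM and fitted with glmQLFit and glmQLFTest with genotype as the only term, and p-values were adjusted by Benjamini-Hochberg over all genes tested, with a threshold of 0.1. The standard error is the estimate divided by the square root of its F statistic, and the 95% interval uses the degrees of freedom of the test. CPM uses TMM-scaled totals. Exon lengths and positions came from an annotation of NCBIM37 (mm9), in which *Ajuba* is named Jub, and promoter windows from RefSeq (GRCm38.p6). DESeq2 1.42.0, limma 3.58.1 (voom), RLE scaling, scaling by library size only, no filter beyond a minimum of 1 count, a threshold of 0.05, the replicate block and leaving out each library were alternatives. The edgeR test with and without the block, DESeq2 and limma-voom were tried on simulated data. The changes planted there were larger than the estimate of any member, so the trial does not show that changes of the members' size would be found.

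The members, the 17 other targets, the 28 genes of the pathway list (*Wisp3* included) and the marker lists were chosen with earlier results of these data known. Named genes are the members, *Phf2*, *Wwtr1*, *Tead1* to *Tead4*, *Lats1*, *Wisp3*, listed genes called by edgeR, DESeq2 or the blocked fit, the 3 largest and 3 smallest estimates of each list, and the 3 genes, with a mean of at least 1 CPM, most alike to each of *Cyr61*, *Ctgf* and *Ankrd1*. *Myod1*, *Myog*, *Des*, *Pecam1*, *Vwf*, *Kdr*, *Xist* and *Ddx3y* were named after their values were seen. Figures were drawn with Matplotlib 3.10.9.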

Additional observations from a re-analysis of the deposited data

How the results depend on the processing

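Without WT replicate 1, WT replicate 2, *Phf2* KO replicate 1 or *Phf2* KO replicate 2, edgeR called 0 members, 0 other targets and 0 pathway genes; the library left alone in its group is there assumed to vary like the other group. The members' log2 fold changes then ran from -0.19 to 0.69 (*Cyr61*), -0.29 to 0.47 (*Ctgf*), -0.25 to 0.38 (*Wisp2*), -0.22 to 0.034 (*Wisp1*), -0.032 to 0.20 (*Ankrd1*), -0.075 to 0.28 (*Amotl2*), -0.072 to 0.13 (*Lats2*) and -0.066 to 0.24 (*Yap1*), each crossing 0. *Nov* (0.06 to 0.36) and *Ajuba* (0.12 to 0.31) kept their sign. Of the other named genes, *Foxf2* (-1.18 to 1.81), *Tead1* (-0.086 to 0.029), *Tead3* (-0.00251 to 0.21), *Tead4* (-0.11 to 0.22), *Tgfb2* (-0.11 to 0.69) and *Wwtr1* (-0.073 to 0.078) crossed 0. Over all genes these fits called 0 higher and 0 lower. Among 70 values of the members under the other alternatives, 0 changed sign. All of them rest on the same 4 libraries, and the threshold of 0.05 cannot change an estimate. *Foxf2* was 0.20 by limma-voom, and *Wwtr1* -0.00816 with library size alone and -0.00256 with all genes of at least 1 count. Over all genes DESeq2 called 10 higher and 54 lower, and limma-voom and a threshold of 0.05 called 0 lower (352 at an unadjusted p under 0.05 by limma-voom).

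The fit with the replicate block called 789 genes higher and 711 lower over the whole table. No source states that equal numbers mark paired libraries. Across 13656 genes, the difference between replicates in WT had a Pearson's r of 0.746 with that in *Phf2* KO, a hint from the data only. *Xist*, *Ddx3y* and all 12 macrophage markers also differed by replicate number in the same direction in both groups. The fit with genotype alone counts such shared differences as error. Its common dispersion was 0.045, against 0.0036 in the fit with the replicate block. That fit leaves 1 residual degree of freedom. It called 1 member higher, *Ajuba* (log2 fold change 0.21, adjusted p = 0.0997 in edgeR), and 0 lower. It left *Cyr61* just over the threshold (log2 fold change 0.24, adjusted p = 0.105 in edgeR). Of the other targets it called 5 higher (*Nuak2*, *Gadd45a*, *F3*, *Fjx1*, *Tgfb2*) and 1 lower (*Asap1*), and of the pathway genes 5 higher (*Tead2*, *Wwc1*, *Amot*, *Map4k4*, *Wtip*) and 1 lower (*Fat4*). The adjusted p-values of these 12 genes lay between 4.95e-05 and 0.0664 in edgeR.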
